A study of Sus scrofa with 9 samples.

Results

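Antigen presentation genes of the swine leukocyte antigen (SLA) class II and peptide transporter pathways were followed in 9 porcine hearts donated after circulatory death. The set was written as 10 gene symbols: CIITA, CD74, SLA-DRA, SLA-DMA, SLA-DMB, SLA-DOA, SLA-DOB, B2M, TAP1 and TAP2. Rows were taken where the gene name in the table was one of these symbols, which gave 6 genes of 25149 in the table: CIITA, SLA-DMA, SLA-DMB, SLA-DOA, B2M and TAP1. No row carried the symbol CD74, SLA-DRA, SLA-DOB or TAP2. Of the 6 genes, 5 reached at least 1 TPM, a length-scaled relative abundance, in 3 or more hearts and were among the 11782 genes tested, and TAP1 did not. The tested genes are thus both DM chains, the alpha chain of DO, the class II regulator and the class I light chain, with no peptide-binding class II chain and no transporter chain among them.

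Class II molecules carry peptides from the endocytic pathway to the surface of antigen-presenting cells, where CD4 T cells read them, and pig endothelium is known to carry them as well. The transactivator CIITA is the master switch of their transcription, and interferon gamma is its classic inducer. Class I molecules are present on nearly all nucleated cells and show peptides that the proteasome cuts in the cytosol and that the transporter formed by TAP1 and TAP2 carries into the endoplasmic reticulum. Both classes are the main targets of rejection after transplantation.

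The hearts came from female American Yorkshire pigs aged 4 to 6 months, with 1 pig per sample and 3 hearts in each of 3 groups, and every heart underwent 15 min of asystolic warm ischemia. NRP + HOPE 24 h (pigs 27, 28 and 30, here the 24 h HOPE group) had 60 min of normothermic regional perfusion (NRP), which restores warm blood flow inside the donor, and then 24 h of hypothermic oxygenated perfusion (HOPE) at 8 °C. NRP + SCS 2 h (pigs 24, 25 and 29, here the SCS group) had the same NRP and then 2 h of static cold storage (SCS) at 4 °C. No NRP + HOPE 2 h (pigs 31, 33 and 34, here the no-NRP group) had no NRP and 2 h of HOPE at 8 °C. All hearts were then perfused for 2 h on a normothermic circuit (NMP) primed with donor whole blood, and apex biopsies were taken at its end. The HOPE perfusate contained donor packed red blood cells, while the SCS hearts lay in preservation solution alone. Storage method, perfusate, temperature and duration changed together between the groups with NRP. NRP and storage changed together in the other comparisons, so these factors cannot be told apart.

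Gene expression is given as TPM, in which gene length is accounted for and the genes of each heart sum to 1000000, so levels of different genes can be set side by side within a heart. The read counts behind the values were not used here and the depth of each heart is unknown. The labels name cardiomyocytes as the cell type, but the tissue was whole myocardium: summed cardiomyocyte markers ranged from 21699 to 42455 TPM, endothelial markers from 281 to 611 TPM, and macrophage markers from 66.2 to 223 TPM. Mitochondrially encoded genes took 38.2 to 55.3% of TPM, with the highest shares in pigs 27 and 31. In these hearts 29.1 and 24.8% of all tested genes had their lowest value. In bulk tissue, fewer cells of a type and less RNA per cell cannot be told apart.

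CIITA, the regulator of class II transcription, had its lowest mean in the 24 h HOPE group. Its level was 1.87, 2.04 and 4.15 TPM in pigs 27, 28 and 30, against 9.81, 4.07 and 5.89 TPM in pigs 24, 25 and 29 of the SCS group, and 2.17, 7.42 and 10.1 TPM in pigs 31, 33 and 34 of the no-NRP group. Pig 30 reached just above pig 25, and pig 31 lay among the hearts of the 24 h group, so the groups overlapped in every comparison. The difference in log2(TPM + 1) between the 24 h HOPE group and the SCS group was -1.02 ± 0.46 (SE, n = 3 hearts per group), with a 95% confidence interval from -2.02 to -0.03. CIITA was the only tested member with an unadjusted p under 0.05 in this comparison, and it did not pass after adjustment over all tested genes (limma, adjusted p = 0.985). Leaving out 1 heart at a time gave differences from -1.29 to -0.73, and without pig 24, 27, 28 or 29 its unadjusted p was no longer under 0.05. The difference from the no-NRP group was -0.91 ± 0.46 (limma, adjusted p = 0.857), and it was -0.54 without pig 34 and -1.45 without pig 31. The 2 groups stored for 2 h differed by -0.11 ± 0.46, and this sign turned without pig 24 (0.18), without pig 31 (0.42) and with array weights (0.19). In the 24 h HOPE group against the SCS group, 7 of 7 tested endothelial markers had negative differences, with a median of -0.47. The median over all tested genes was -0.12, and 35.9% were positive. Without pig 27 the median of the endothelial markers became -0.23. None of them had an unadjusted p under 0.05, and 2 had groups that did not overlap (background 9.82%). Between the 24 h HOPE group and the no-NRP group, 6 of 7 endothelial markers were negative. Their median was -0.07, and it turned without pig 27 (0.17) or pig 33 (0.05). Of 7 tested cardiomyocyte markers, 5 were negative in the 24 h HOPE group against the SCS group. Their median was -0.26, and 0.14 without pig 28. The part of these cell types in the CIITA levels was not tested. Over the 9 hearts the standard deviation of CIITA on the log2 scale was 0.77, larger than in 91.2% of tested genes.

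SLA-DMA and SLA-DMB encode the alpha and beta chains of DM, the endosomal chaperone that exchanges the invariant chain remnant for antigenic peptide on class II molecules. SLA-DMA was 9.28, 13.0 and 17.1 TPM in the 24 h HOPE group (pigs 27, 28 and 30), 15.0, 13.6 and 13.6 TPM in the SCS group (pigs 24, 25 and 29), and 9.51, 24.5 and 29.1 TPM in the no-NRP group (pigs 31, 33 and 34). SLA-DMB was 15.5, 28.2 and 30.4 TPM, 33.0, 31.0 and 30.3 TPM, and 25.0, 39.5 and 70.3 TPM in the same order of hearts. Each chain varied little between the SCS hearts, and pigs 33 and 34 without NRP had the highest levels while pig 31 of the same group was near the lowest. The SD within the SCS group was 0.802 TPM for SLA-DMA, against 3.90 TPM in the 24 h HOPE group and 10.2 TPM in the no-NRP group. The largest difference of either chain was that of SLA-DMB between the 24 h HOPE group and the no-NRP group, -0.77 ± 0.37 on the log2 scale (95% confidence interval -1.57 to 0.03, limma, adjusted p = 0.846), and it was -0.39 without pig 34 and -0.48 without pig 27. SLA-DMA differed by -0.54 ± 0.38 in this comparison (limma, adjusted p = 0.943), by -0.25 without pig 34, -0.34 without pig 27 and -1.01 without pig 31. Against the SCS group, the hearts without NRP had differences of 0.41 ± 0.38 for SLA-DMA and 0.38 ± 0.37 for SLA-DMB, with limma adjusted p-values of 0.885 and 0.888. Without pig 34 these were 0.12 and 0.00097, and without pig 31 they were 0.88 and 0.73. SLA-DMA was also lower without pig 33, at 0.24. The 24 h hearts differed from the SCS group by -0.13 ± 0.38 for SLA-DMA and -0.39 ± 0.37 for SLA-DMB (limma, adjusted p = 0.993 for each). The sign for SLA-DMA turned under quantile normalization (0.010), under median-of-ratios scaling (0.0052) and without pig 27 (0.080), where SLA-DMB was -0.10.

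SLA-DOA encodes the alpha chain of DO, which binds DM and restrains it, and is best known from B cells. It was 2.41, 4.81 and 8.25 TPM in the 24 h HOPE group, 7.36, 3.34 and 5.003 TPM in the SCS group, and 2.34, 7.93 and 6.50 TPM in the no-NRP group, with the pigs in the order above. Each group held a low and a high heart, and SLA-DOA had the smallest differences of the tested members, from -0.10 ± 0.45 to 0.01 ± 0.45 on the log2 scale. Their 95% confidence intervals reached from -1.06 to 0.98, so differences of about 1 log2 unit in either direction lay within or near them. These intervals are not adjusted over all tested genes. A difference of that size in CIITA, -1.02 ± 0.46, did not pass after adjustment. The sign of each SLA-DOA difference turned when some single heart was left out. SLA-DOA was the only member whose highest level was in pig 30. B cell markers were near 0, with 5 of the 6 found genes (8 listed) under 1 TPM in all hearts and sums from 0.751 to 2.37 TPM.

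The DR alpha and DO beta chains were found under their human names. These rows lie outside the rule and were identified after the table had been opened. The row named HLA-DRA, the human symbol for the DR alpha chain, was 272, 487 and 611 TPM in the 24 h HOPE group, 528, 455 and 454 TPM in the SCS group, and 280, 587 and 1249 TPM in the no-NRP group. Pig 34 was 2.65 times the median of the other hearts, pigs 27 and 31 were the lowest, and the groups overlapped. SLA-DQB1, the DQ beta chain and a gene of the related lists, was 378, 529 and 787 TPM, 486, 436 and 429 TPM, and 408, 671 and 784 TPM. Across the hearts HLA-DRA was 11.2 to 20.1 times and SLA-DQB1 11.2 to 25.9 times the level of SLA-DMB. HLA-DRA differed by -0.14 ± 0.44 between the 24 h HOPE group and the SCS group, by 0.30 ± 0.44 for the no-NRP group against the SCS group, and by -0.45 ± 0.44 between the 24 h HOPE group and the no-NRP group, with limma adjusted p-values from 0.927 to 0.993. The first of these signs turned without pig 27 (0.19) and with median-of-ratios scaling (0.0040), and the other two turned without pig 34 (-0.24 and 0.09). The row named HLA-DOB, the DO beta chain, was 0.453, 1.12 and 0.0843 TPM in the 24 h HOPE group, 0.0926, 0.810 and 1.29 TPM in the SCS group, and 0.457, 2.88 and 2.89 TPM in the no-NRP group. Pigs 33 and 34 were above all others and pig 31 was not, so the groups overlapped. HLA-DOB differed by -0.15 ± 0.45, 0.76 ± 0.45 and -0.91 ± 0.45 in the order of comparisons given for HLA-DRA (limma, adjusted p = 0.993, 0.802 and 0.853). The first turned without pig 29 or 30 and with array weights, the second was 0.46 without pig 24 and 1.23 without pig 31, and the third was -1.38 without pig 31.

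B2M encodes beta-2 microglobulin, the light chain that all class I molecules need to fold and reach the surface. It was the most abundant member, with 242, 351 and 341 TPM in the 24 h HOPE group, 342, 303 and 425 TPM in the SCS group, and 285, 402 and 638 TPM in the no-NRP group. Pig 34 was 1.87 times the median of the other hearts, pigs 27 and 31 were the lowest, and the groups overlapped. The differences were -0.20 ± 0.30 (24 h against SCS), 0.24 ± 0.30 (no NRP against SCS) and -0.44 ± 0.30 (24 h against no NRP) on the log2 scale, with limma adjusted p-values of 0.993, 0.918 and 0.934. Without pig 34 the second of these was -0.06 and the third -0.14. The first was -0.03 without pig 27, -0.07 without pig 29 and -0.31 without pig 25, and leaving out single hearts gave -0.06 to 0.52 for the second and -0.72 to -0.14 for the third. The SD of B2M over the hearts was 0.40 log2 units, larger than in 42.7% of tested genes. RefSeq lists B2M at 2 loci in the Sscrofa11.1 assembly while the table has 1 row, and only uniquely mapped reads were counted, so its level is uncertain.

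TAP1, the first chain of the peptide transporter, was under 1 TPM in all hearts and was not tested. It was listed at 0.260, 0.0970 and 0.554 TPM in the 24 h HOPE group, 0.380, 0.499 and 0.249 TPM in the SCS group, and 0.0536, 0.249 and 0.628 TPM in the no-NRP group. The 3 groups overlapped throughout. In RefSeq the neighbours of TAP1 in Sscrofa11.1 are PSMB8 and PSMB9, which encode inducible catalytic subunits of the immunoproteasome. These were listed at 0 to 1.10 TPM and 0 to 1.13 TPM, highest in pig 34 for both, although B2M was at least 242 TPM and HLA-DRA at least 272 TPM in the same hearts. TAP2, found by its gene identifier after the table had been opened, was 4.60, 1.27 and 1.03 TPM, 8.02, 2.61 and 4.29 TPM, and 1.26, 2.39 and 17.8 TPM in the 3 groups. Pig 34 was again the highest, at 7.13 times the median of the others, and TAP2 had differences of -0.91 ± 0.66, -0.09 ± 0.66 and -0.83 ± 0.66 in the order given for B2M (limma, adjusted p from 0.954 to 0.993). The third of these signs turned without pig 34 (0.09), and the second turned without pig 24, 31 or 33. Leaving out single hearts gave -1.38 to -0.57 for the first.

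**Figure D1:**
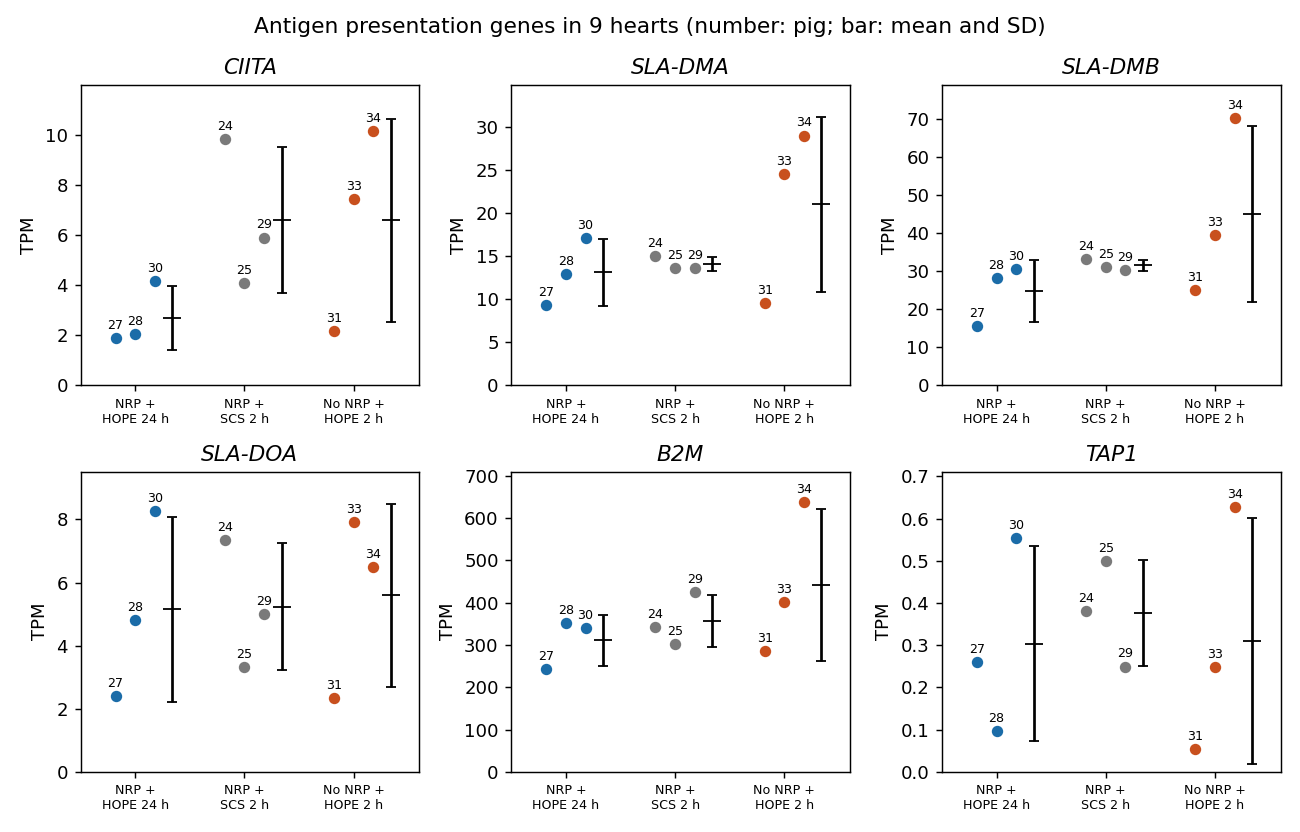
TPM of the 6 genes found by symbol (y axis, linear from 0) in each heart, grouped by preservation; each point is 1 heart labelled with its pig number, and the bar beside each group is the mean with its SD (n = 3). Pig 34 has the highest point in 5 of the 6 panels, pig 30 has it for SLA-DOA, and the groups overlap in each panel.

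No tested member was called in any comparison. A call needed a limma adjusted p under 0.05 together with a log2 fold change above 1 in size. When the 24 h HOPE group was set against the SCS group, 0 of 5 tested members were called, against 0.0255% of all tested genes. At an unadjusted p under 0.05 it was 1 of 5 members, CIITA, against a background of 4.97%, and 0 of 5 had groups that did not overlap, against 9.82%. For the no-NRP group against the SCS group, 0 of 5 were called (background 0.0509%), 0 of 5 had an unadjusted p under 0.05 (7.22%), and 0 of 5 had groups that did not overlap (14.7%). Between the 24 h HOPE group and the no-NRP group, the counts were again 0 of 5 called (0.0509%), 0 of 5 at the unadjusted threshold (6.01%) and 0 of 5 without overlap (7.48%). Without pig 31, the lowest of the no-NRP hearts, 4 of 5 members had an unadjusted p under 0.05 in this comparison, where 8.77% of the genes tested without it did, and none was called. This heart is singled out by its levels of the members, so the count is a description. The F test over the 3 groups gave 0 of 5 members at an adjusted p under 0.05, where 0.102% of tested genes passed, with member adjusted p-values from 0.857 to 0.999. With 3 hearts against 3, an exact permutation test of a single gene cannot give a p under 0.1. Limma called only 3 and 6 of all 11782 tested genes for the 24 h HOPE and no-NRP groups, each against the SCS group. The paper, with DESeq2 on counts, reported far more differentially expressed genes in both of these comparisons. The absence of a call here therefore does not show that a gene was unchanged.

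Most differences of the members shared a sign within a comparison, none of them called. In the 24 h HOPE group against the SCS group, 0 of 5 differences were positive and their median was -0.20, where the median of all tested genes was -0.12 and 35.9% were positive. Median-of-ratios scaling moved the median of all genes in this comparison to 0.00030 and that of the members to -0.05, and it turned the signs of SLA-DMA and SLA-DOA. Without pig 27 the median of the members was -0.03, and without pig 30 it was -0.43. In the no-NRP group against the SCS group, 4 of 5 were positive with a median of 0.24, beside -0.07 and 42.2% over all genes, and without pig 34 the median of the members was -0.06 and without pig 31 it was 0.52. In the 24 h HOPE group against the no-NRP group, 0 of 5 were positive with a median of -0.54, beside -0.03 and 46.1%, and without pig 34 it was -0.25 and without pig 31 -1.01. The first and second comparisons share the hearts of the SCS group and the third shares hearts with each of them, so these medians are not independent.

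**Figure D2:**
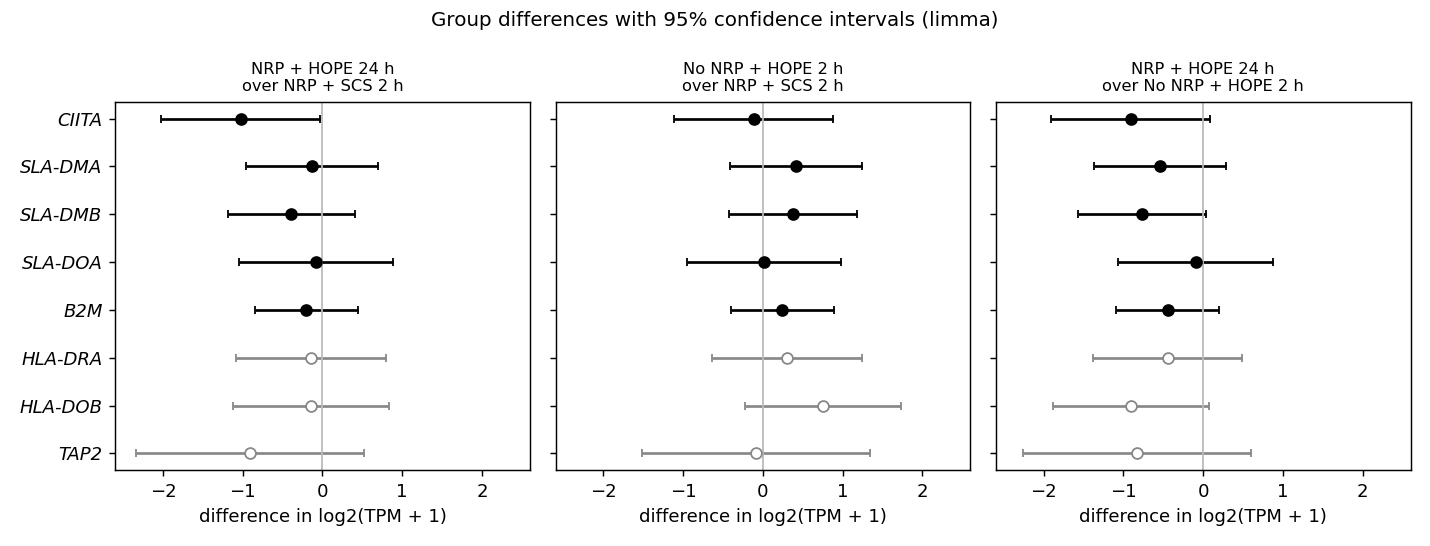
Differences between groups in log2(TPM + 1) (x axis) for the 5 tested members (filled) and the 3 rows of set genes found under another name or identifier (open), 1 panel per comparison; bars are 95% confidence intervals from limma with all 9 hearts in 1 fit. Each interval crosses 0 except that of CIITA in the first panel, which ends at -0.03.

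The hearts of 1 group could lie far apart. Pig 34 had the highest level of 5 of the 6 members, and pig 30 had that of SLA-DOA, whereas over all tested genes pig 34 was highest in 22.2% and pig 30 in 33.8%. Pig 27 was lowest in 4 members and pig 31 in the other two, SLA-DOA and TAP1. Pig 31 was among the 3 lowest hearts in all 6 members, and pig 27 in 5. Pigs 33 and 34 were among the 3 highest in 5 members each. The no-NRP group thus held 2 of the hearts with high levels and 1 with low levels.

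Other genes and markers differed between the same hearts. Of 16 tested interferon-stimulated genes, 16 were highest in pig 34, for example MX1, an antiviral GTPase, at 335 TPM there and 22.4 to 77.2 TPM elsewhere, and RSAD2, which encodes viperin, at 468 TPM against 8.36 to 52.7 TPM. Summed macrophage markers were lowest in pig 27 (66.2 TPM) and highest in pig 34 (223 TPM), where C1QA, a complement subunit gene, gave 179.7 TPM of the sum and was the only 1 of 7 markers with its highest level. CD68 and MRC1 were highest in pig 24. The sums ranged from 66.2 to 149 TPM in the 24 h HOPE group, 81.5 to 195 TPM in the SCS group and 117 to 223 TPM in the no-NRP group, over 7 of 12 written markers. T cell markers, 8 of 9 found, summed to 9.59 TPM in pig 27 and 27.3 TPM in pig 34, but CD2 was the only 1 of 8 that was highest in pig 34 (11.9 TPM), and CD3D, CD3G, CD4, CD8B and CD5 were highest in pig 33. LCK, a T cell kinase, was 5.25, 7.47 and 6.16 TPM in the 24 h HOPE group, 1.98, 2.77 and 2.84 TPM in the SCS group, and 6.87, 3.98 and 5.98 TPM in the no-NRP group, so that the SCS hearts were below all the others, with differences of 1.05 and 0.89 (limma, adjusted p = 0.582 and 0.533). LCK was the only 1 of 7 tested T cell markers without overlap in either comparison (background 9.82% and 14.7%). The medians of the list were -0.0069 and 0.36, and 4 of 7 had negative differences in the first. The first median turned without pig 27 (0.26, with 7 of 7 positive), pig 29 (0.28) or pig 25 (0.0041), and the second without pig 34 (-0.04). NK cell markers, 4 of 6 found, summed to 7.29 and 45.3 TPM in pigs 27 and 34, with 37.0 TPM from GNLY in pig 34, and NKG7 and PRF1 were highest in pig 30. Endothelial markers, 7 of 8 found, were lowest in pigs 27 and 31, at 281 and 295 TPM, and 422 to 611 TPM in the other hearts. Of the dendritic cell markers 7 of 10 were found, with 4 under 1 TPM in all hearts, BATF3 listed at 0 throughout and sums from 1.45 to 6.22 TPM. Erythroid markers, 4 of 7 found, summed to 74.1 to 430.4 TPM in the 24 h HOPE group, 72.3 to 136 TPM in the SCS group and 226 to 379 TPM in the no-NRP group, and for the no-NRP group against the SCS group 3 of 3 tested had an unadjusted p under 0.05 (background 7.22%) and groups that did not overlap (background 14.7%), with a median difference of 1.23 and none called. Neutrophil markers, 4 of 7 found, summed to 0.417 to 3.89, 2.02 to 13.3 and 0 to 0.343 TPM in the same order of groups. S100A9, the only one tested, differed by -2.17 between the no-NRP group and the SCS group (limma, adjusted p = 0.140). In the 24 h HOPE group against the SCS group it differed by -1.35 (limma, adjusted p = 0.792). In that comparison 3 of 3 tested erythroid markers were positive, with a median of 0.91, and 1 had an unadjusted p under 0.05 (background 4.97%). Their groups overlapped, and the median was 0.53 without pig 30 and 1.57 without pig 27. The part of these cell types in the members' levels was not tested, nor was that of the perfusate red blood cells in the erythroid levels.

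**Figure D3:**
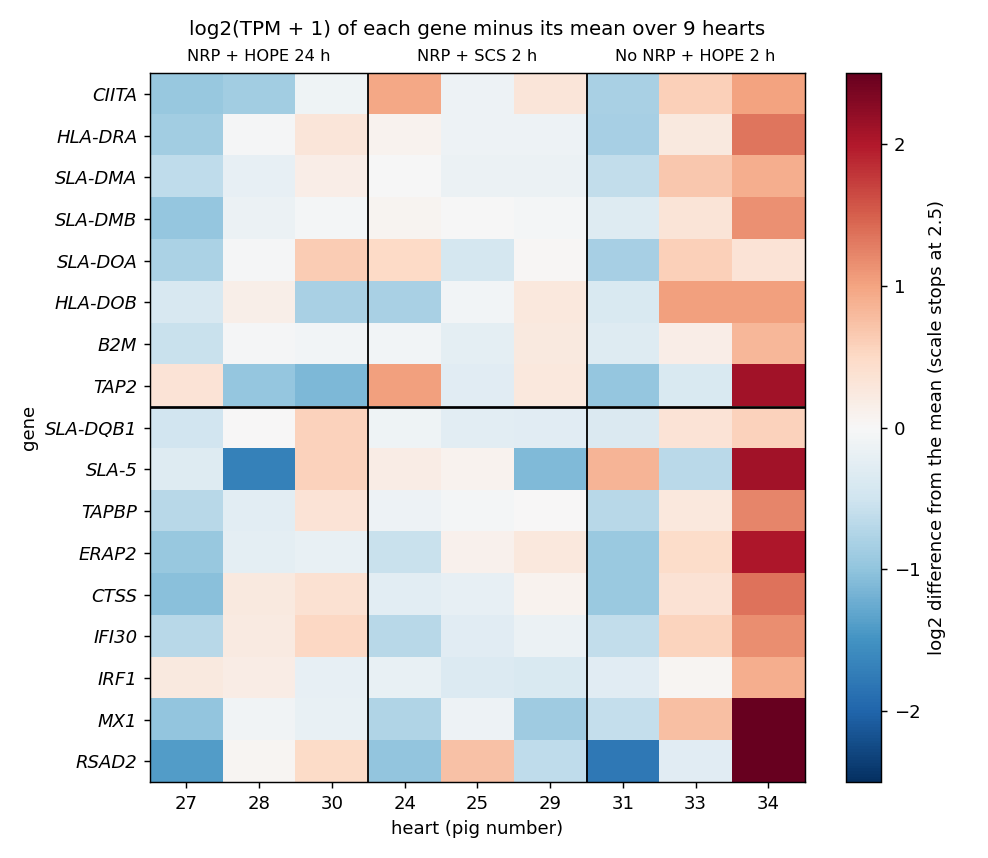
Colour shows log2(TPM + 1) of each gene minus its mean over the 9 hearts (columns, by group and pig number); rows above the line are set genes, including those found under another name or identifier, and rows below are related genes. Colours saturate at 2.5. The column of pig 34 is above the mean in every row and those of pigs 27 and 31 are mostly below it.

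The members varied together from heart to heart on the TPM scale. Over the 10 pairs of tested members and 9 hearts, Pearson's r of log2(TPM + 1) had a median of 0.79 and ranged from 0.62 to 0.93, and 8 of 10 pairs had an adjusted p under 0.05 (exact permutation test over all pairings, two-sided, Benjamini-Hochberg over the 10 pairs). With Spearman's rho it was 4 of 10. The 2 chains of DM gave r = 0.91 (exact permutation p = 8.27e-05, adjusted p = 0.000827) and rho = 0.92 (exact permutation p = 0.00131, adjusted p = 0.00676), and r was 0.81 without pigs 33 and 34, the hearts farthest from the median. SLA-DMB and B2M gave the highest r, 0.93 (exact permutation p = 0.00113, adjusted p = 0.00376), but rho was 0.67 (exact permutation p = 0.0589, adjusted p = 0.0654), and r fell to 0.60 without pigs 27 and 34. CIITA and SLA-DMA gave r = 0.79 (exact permutation p = 0.0101, adjusted p = 0.0190) and rho = 0.90 (exact permutation p = 0.00203, adjusted p = 0.00676), and r was 0.83 without pigs 24 and 34. SLA-DOA and B2M gave the lowest r, 0.62 (exact permutation p = 0.0684), with rho = 0.55 (exact permutation p = 0.133) and r = 0.27 without pigs 27 and 31.

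**Figure D4:**
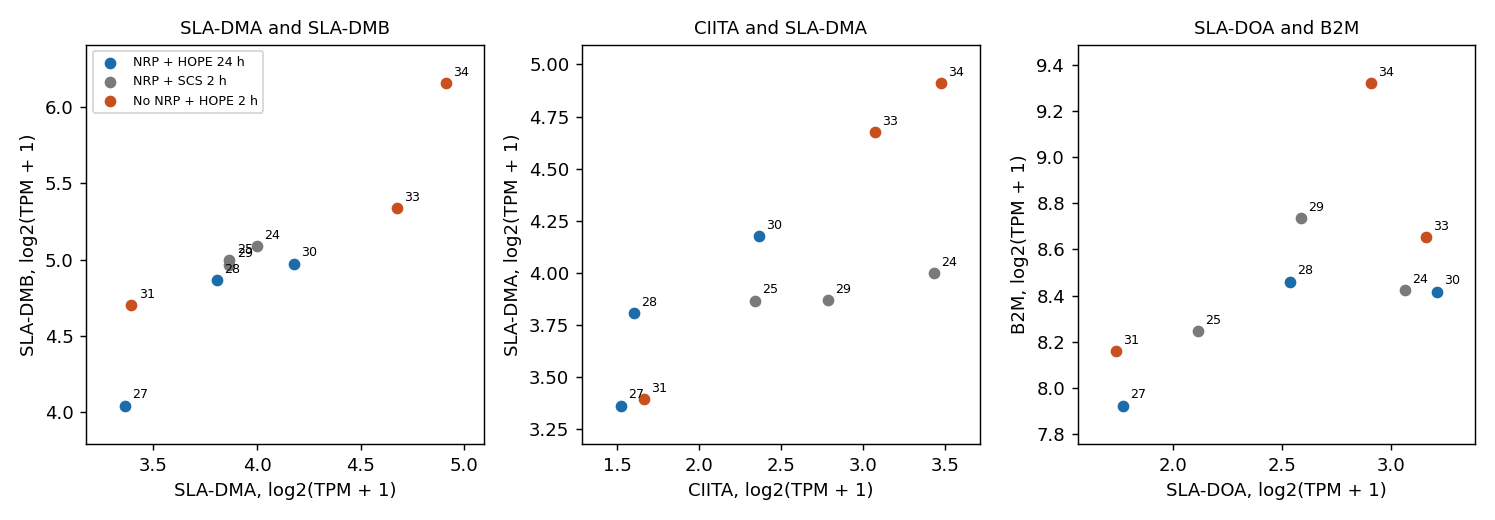
Levels of 3 pairs of members on the log2(TPM + 1) scale, each point 1 heart coloured by group and labelled with its pig number. The chains of DM (left, r = 0.91) lie along 1 line in all groups, CIITA and SLA-DMA (middle, r = 0.79) vary together, and SLA-DOA and B2M (right, r = 0.62) are more scattered.

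These correlations depended on scaling. On the TPM scale the median r over all pairs of tested genes was 0.29, and 3.87% of them reached the median of the members. Deviations from the group means gave a median of 0.85 for the members, and leaving out single hearts gave 0.73 to 0.86. With median-of-ratios scaling, which removes differences carried by most genes, the median of the member pairs was 0.61 and that of all gene pairs -0.0013, and 1 of 10 member pairs passed. With quantile normalization the member median was 0.60 and 2 pairs passed, and with the 13 mitochondrially encoded genes left out it was 0.72 and 5 pairs passed. The chains of DM (0.82 to 0.87) and SLA-DMB with B2M (0.81 to 0.88) kept the highest r under these 3 scalings, whereas SLA-DOA with B2M fell to 0.11 with median-of-ratios scaling.

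**Figure D5:**
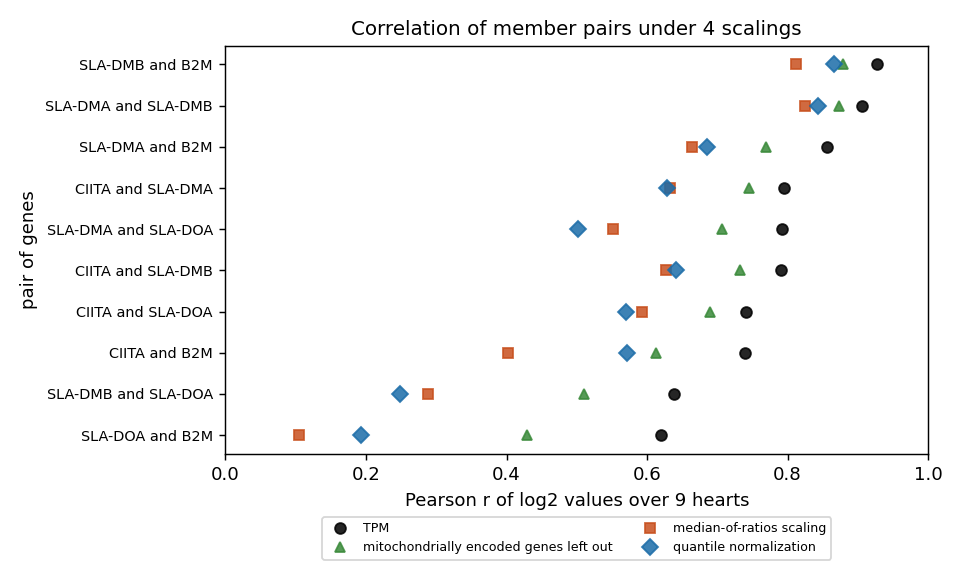
Pearson's r over 9 hearts (x axis) for each of the 10 pairs of tested members (rows) on the TPM scale (circles), without mitochondrially encoded genes (triangles), with median-of-ratios scaling (squares) and with quantile normalization (diamonds). The TPM value is the highest of the 4 in every row, and the pairs of SLA-DMB with B2M and with SLA-DMA move least.

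Ratios between chains within a heart were chosen after the values were seen. SLA-DMB over SLA-DMA ranged from 1.61 in pig 33 to 2.63 in pig 31, a coefficient of variation of 16.5%, while the chains alone varied by 45.0 and 41.4%. HLA-DRA over SLA-DMA varied by 16.4%, from 23.9 in pig 33 to 43.0 in pig 34. The other ratios taken varied more. They gave 28.2% for SLA-DMA over SLA-DOA, 28.3% for HLA-DRA over SLA-DQB1, 39.6% for SLA-DMA over CIITA and 80.6% for B2M over SLA-5. SLA-DMA over CIITA was 4.97, 6.38 and 4.11 in the 24 h HOPE group, 1.53, 3.34 and 2.31 in the SCS group, and 4.38, 3.31 and 2.86 in the no-NRP group. These ratios of the 24 h hearts lay above those of all the SCS hearts and overlapped with those of the hearts without NRP. For SLA-DMB over SLA-DMA and HLA-DRA over SLA-DQB1, the 24 h hearts lay below all the SCS hearts and overlapped with those without NRP. All ratios are given as a description, with no test.

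The genes most like the members were searched among all tested genes with a symbol, by r over the 9 hearts. Because CD74 and SLA-DRA were not found, SLA-DMA was used for class II, and the 5 genes closest to it were TBCCD1 (r = 0.98), TMEM173, which encodes the innate sensor adaptor STING (0.98), SHISA5 (0.96), AMIGO2 (0.96) and APP, the amyloid precursor protein (0.96). B2M stood in for the transporter, and the 5 genes closest to it were SYNE2 (0.99), the complement gene C2 (0.98), CHMP5 (0.97), SLC35A5 (0.96) and FUNDC1 (0.96). All of these were highest in pig 34, and without it r stayed between 0.91 and 0.99. They were picked as the highest values over all tested genes, so their r describes these hearts and is not tested.

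No gene of the related lists was called in any comparison. In the list of class I peptide loading and immunoproteasome genes, 11 of 13 listed genes were found and 8 were tested, and their median difference was -0.10 in the 24 h HOPE group against the SCS group and -0.01 in the no-NRP group against the SCS group. Without single hearts these medians ran from -0.32 (without pig 30) to 0.11 (without pig 27) and from -0.22 (without pig 34) to 0.21 (without pig 31). TAPBP, or tapasin, which bridges class I to the transporter, was 24.1, 32.8 and 50.3 TPM, 36.5, 38.1 and 39.9 TPM, and 24.0, 48.1 and 93.9 TPM in the 3 groups. Its difference without NRP was 0.32 (limma, adjusted p = 0.923), and -0.16 without pig 34. ERAP2, an aminopeptidase that trims class I peptides, had 42.2 TPM in pig 34 and 4.52 to 13.6 TPM elsewhere, with a difference of 0.58 (limma, adjusted p = 0.889) that became -0.18 without pig 34. PSME1 was listed at 0 in all hearts. Of the class I heavy chains, SLA-5 ranged from 13.1 TPM in pig 28 to 194 TPM in pig 34, and the ratio of B2M to it ran from 3.28 to 26.8. It differed by 1.03 between the no-NRP group and the SCS group (limma, adjusted p = 0.813), by 0.36 without pig 34, 0.62 without pig 29, 1.75 without pig 33 and 0.18 with array weights. Between the 24 h HOPE group and the no-NRP group it differed by -1.24 (limma, adjusted p = 0.857), by -0.57 without pig 34, -0.64 without pig 28 and -1.96 without pig 33. Of 13 listed class I and class I-like chains 4 were found, and the 3 tested were SLA-5, MR1 and FCGRT, the neonatal Fc receptor, which presents no peptide. Pigs carry different SLA haplotypes, and whether reads of some alleles were lost from these rows was not tested.

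In the list of class II peptide processing genes, 7 of 12 listed genes were found, all 7 were tested, and the medians were 0.00083 and 0.24 in these comparisons. The first ran from -0.27 (without pig 30) to 0.34 (without pig 27). The second was 0.01 without pig 34, 0.06 without pig 33, 0.16 without pig 24, 0.15 without pig 29 and 0.43 without pig 31. CTSS, or cathepsin S, which degrades the invariant chain, was highest in pig 34 (244 TPM) and lowest in pigs 27 and 31 (45.3 and 48.8 TPM). Without NRP, its difference from the SCS hearts was 0.39 (limma, adjusted p = 0.921), and -0.15 without pig 34. CTSH, or cathepsin H, had the largest difference of this list in the 24 h HOPE group against the SCS group, 0.44 (limma, adjusted p = 0.993), and it was 0.18 without pig 30 and 0.69 without pig 27. IFI30, a lysosomal thiol reductase that unfolds antigens, differed by 0.75 between the no-NRP group and the SCS group (limma, adjusted p = 0.781), by 0.35 without pig 34 and by 1.23 without pig 31.

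Among the transcription and interferon gamma signaling genes, 13 of 20 listed genes were found and 11 were tested, with medians of -0.33 for the 24 h HOPE group and 0.11 for the no-NRP group, each against the SCS group. The first was -0.09 without pig 27. The second turned without pig 34 (-0.29), pig 33 (-0.10) or pig 24 (-0.0026) and was 0.31 without pig 31. IRF1, which interferon gamma induces and which drives class I and CIITA promoters, was 165, 158 and 120 TPM, 121, 109 and 106 TPM, and 114, 143 and 263 TPM in the 3 groups, with differences of 0.39 and 0.54 from the SCS group (limma, adjusted p = 0.993 and 0.777), the second of which was 0.19 without pig 34. JAK1, a kinase of the interferon receptors, was 24.7, 30.5 and 24.5 TPM without NRP, below all 3 SCS hearts at 49.5, 37.1 and 37.4 TPM. The difference was -0.61 (limma, adjusted p = 0.689). In this comparison 2 of 11 tested genes of the list had groups that did not overlap (background 14.7%). SOCS1, a feedback inhibitor of interferon signaling, was 16.7, 15.7 and 22.0 TPM in the 24 h HOPE group, below 24.1, 32.4 and 61.2 TPM in the no-NRP group. The difference was -0.98 (limma, adjusted p = 0.700), and -0.61 without pig 34. SOCS1 was the only 1 of 11 tested genes of the list without overlap in this comparison (background 7.48%). JAK2, another receptor kinase, had the largest difference of this list in the 24 h HOPE group against the SCS group, 0.57 (limma, adjusted p = 0.993), with 0.37 without pig 30 and 0.85 without pig 27. STAT2, a factor of interferon-stimulated transcription, had the largest in the 24 h HOPE group against the no-NRP group, -0.98 (limma, adjusted p = 0.870), and it was -0.17 without pig 34, where it stood at 49.8 TPM, and -1.60 without pig 31. RFX5, which binds class II promoters with CIITA, ranged from 0.605 TPM in pig 27 to 5.28 TPM in pig 34. No row carried the symbol IFNG or NLRC5.

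Of the costimulation list, 5 of 7 listed genes were found, and all 5 were tested. These genes, CD80, CD86, CD83, CD274 and ICAM1, had positive differences in the 24 h HOPE group against the SCS group, with a median of 0.49 on the log2(TPM + 1) scale, where the 5 tested members had negative ones, those of SLA-DMA and SLA-DOA turning with median-of-ratios scaling. The median of the list was 0.60 for the no-NRP group against the SCS group, 0.23 without pig 34 and 0.24 without pig 29. The median of 0.49 ran from 0.37 (without pig 29) to 0.79 (without pig 24), and 4 of 5 were positive without pig 24, 28 or 30. CD83, a surface protein of activated antigen-presenting cells that stabilizes class II and CD86, was 34.1, 50.1 and 98.2 TPM in the 24 h HOPE group, 11.8, 11.2 and 18.4 TPM in the SCS group, and 23.7, 28.7 and 22.9 TPM in the no-NRP group. The groups did not overlap in any of the comparisons, and CD83 was the only 1 of 5 genes of the list without overlap in each. Over all tested genes the shares without overlap were 9.82%, 14.7% and 7.48%, in the order given for B2M. The differences of CD83 were 1.96, 0.85 and 1.11 in that order (limma, adjusted p = 0.127, 0.661 and 0.541), and the third was 0.70 without pig 30. The first passed 0.05 with median-of-ratios scaling, quantile normalization and array weights, and the adjusted p ranged from 0.0149 to 0.413 over 18 alternatives. The difference between CD83 and the members was not tested.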

How the data were processed

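Total RNA of apex biopsies was enriched for mRNA with oligo(dT) beads and sequenced in paired ends. According to the methods and the submitters' processing notes, the authors used bcl2fastq 2.17, Trimmomatic 0.36, STAR 2.5.2b and featureCounts of Subread 1.5.2 on uniquely mapped exonic reads, and tested counts with DESeq2. The authors deposited TPM values, 1 column per heart, for 25149 genes. The genome build and the gene lengths behind TPM are not given in the sources used here. A further 9 columns matched no labelled sample and were not used.

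Since these values are no counts, log2(TPM + 1) was modelled with limma 3.58.1 (R 4.3.3). The model had a mean for each of the 3 groups over all 9 hearts together, and a variance trend. Two-sided tests covered 11782 genes, those that reached 1 TPM in 3 or more hearts, and p-values were adjusted over all of these by Benjamini-Hochberg. Fold changes on this scale understate changes of genes with low TPM. The model was tested on simulated data with changes of 3 log2 units, larger than any difference of the members. That test does not show how well smaller changes are found. Replicates were separate pigs, and pigs were not shared between groups. Pairs of members were compared by exact permutation over 362880 pairings in Python 3.11.15 (numpy 2.4.6, pandas 2.3.3). Plots were made in matplotlib 3.10.9.

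The members and the gene lists were chosen with earlier results of these data known. The rule for named genes took all members, the 3 tested genes of each list with the largest differences in a comparison, a few fixed interferon and proteasome genes, and the 5 genes most like SLA-DMA and B2M each. Of the list genes it took, the text gives values for a part, picked with their values known, and RSAD2 and the marker genes lie outside it. HLA-DRA, HLA-DOB and TAP2 by identifier were added after the table had been opened. Alternatives were a pseudocount of 0.1, no filter, a minimum mean TPM of 5, quantile normalization, median-of-ratios scaling, omission of 13 mitochondrially encoded genes, only the 6 hearts compared, no variance trend, array weights (statmod 1.5.0) and each heart left out in turn. SLA genes are polymorphic and have close copies, and unique-read counting may split or lose their reads. RefSeq was used for locus counts and for which genes neighbour each other, and no sequence or genome coordinate is printed.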

Additional observations from a re-analysis of the deposited data

How the results depend on the processing

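The count of members called stayed at 0 in each comparison and in the F test under all alternatives, and the smallest adjusted p of a member under any of them was 0.172 (limma). Of 270 member differences under alternatives, 251 had the sign of the reported value. The depth of the hearts is unknown, and with 3 hearts per group the 95% confidence intervals of the members reached from -2.02 to 1.24 log2 units. No paired analysis was possible because no pig belongs to more than 1 group. The promoter motif counts planned were not run because promoter sequences were not used here. The cause of the changes below was not tested.

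The count of members with an unadjusted p under 0.05 for the 24 h HOPE group against the SCS group went from 1 to 0 with no filter on low values and with a mean TPM of at least 5, and ranged from 0 to 1 without single hearts. For the no-NRP group against the SCS group it went from 0 to 1 with quantile normalization and with array weights, and ranged from 0 to 1 without single hearts. For the 24 h HOPE group against the no-NRP group it went from 0 to 3 with array weights, 2 with quantile normalization, 2 with median-of-ratios scaling and 1 without mitochondrially encoded genes, and ranged from 0 to 4 without single hearts, with 4 reached without pig 31 and 2 without pig 30. The median r of the member pairs went from 0.79 to 0.60 with quantile normalization and 0.61 with median-of-ratios scaling. The pairs with an adjusted p under 0.05 (exact permutation test) went from 8 to 2, to 1 and, without mitochondrially encoded genes, to 5.

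Some signs turned. For the 24 h HOPE group against the SCS group, median-of-ratios scaling gave 0.0052 for SLA-DMA, 0.020 for SLA-DOA and 0.0040 for HLA-DRA, quantile normalization gave 0.010 for SLA-DMA and 0.038 for SLA-DOA, and array weights gave 0.14 for HLA-DOB. For the no-NRP group against the SCS group, CIITA became 0.19 with array weights, and SLA-DOA -0.0050 with a pseudocount of 0.1 and -0.012 without mitochondrially encoded genes. Leaving out single hearts gave ranges that crossed 0 in these cases. For the 24 h HOPE group against the SCS group the differences ran from -0.33 to 0.080 for SLA-DMA, from -0.43 to 0.29 for SLA-DOA, from -0.39 to 0.19 for HLA-DRA and from -0.45 to 0.088 for HLA-DOB. For the no-NRP group against the SCS group they ran from -0.48 to 0.42 for CIITA, from -0.26 to 0.44 for SLA-DOA, from -0.061 to 0.52 for B2M, from -0.24 to 0.84 for HLA-DRA and from -1.01 to 0.52 for TAP2. In the same comparison they ran from -0.18 to 1.30 for ERAP2, from -0.16 to 0.80 for TAPBP and from -0.15 to 0.99 for CTSS, each lowest without pig 34. For the 24 h HOPE group against the no-NRP group they ran from -0.53 to 0.27 for SLA-DOA, from -0.98 to 0.093 for HLA-DRA and from -1.43 to 0.093 for TAP2.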
